A study of Mus musculus with 7 samples.

Results

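The proteasome subunits and their assembly factors were examined in epididymal fat of mice that overexpress the transcription factor XBP1. Members were taken by gene name: probe sets that the array's annotation pairs with exactly 1 gene symbol, the symbol being Psma, Psmb, Psmc, Psmd, Psme, Psmf or Psmg followed by a number, with the brightest probe set standing for each gene. The rule matched 50 of the 19938 genes tested. Of these, 48 encode proteasome subunits, caps, an inhibitor or assembly chaperones. The other 2 matches, Psmc3ip (difference -0.19), a cofactor of meiotic recombination, and Psme3ip1 (0.17), named for binding PSME3, are not subunits and were left out of the counts. Fat was profiled from 3 aP2-XBP1 transgenic samples and 4 wild type samples, all from male C57Bl/6J mice of 17 weeks fed chow. The aP2 promoter is that of Fabp4, which adipocytes use and macrophages can use as well, so the transgene need not be limited to adipocytes. Expression was read on Affymetrix Mouse Gene 1.0 ST arrays, 1 per sample, and is given on the log2 scale.

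The proteasome degrades proteins tagged with ubiquitin. Its core particle stacks rings of alpha subunits, which form the gate, on rings of beta subunits, some of which carry the proteolytic sites. A regulatory particle, with ATPases that unfold the substrate and non-ATPases that bind ubiquitin and remove it, sits on the core. Interferon induces a second set of catalytic beta subunits, which replace the usual ones and favour peptides for MHC class I. XBP1 switches on genes of the unfolded protein response, and proteins that fail to fold in the endoplasmic reticulum (ER) are returned to the cytosol and end at the proteasome.

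Xbp1 read 9.76, 9.99 and 9.66 in transgenic fat, against 8.90, 9.07, 8.94 and 9.19 in wild type fat. Every transgenic library was above every wild type library, with a log2 difference of 0.77 (SE 0.11, limma adjusted p = 0.622). The ER stress targets Hspa5, Dnajb9, Derl1, Pdia6 and Herpud1 averaged 9.37, 9.78 and 9.20 in transgenic libraries, against 8.45, 8.64, 8.67 and 8.71 in wild type libraries. Across the whole table limma called 0% of probe sets at an adjusted p under 0.05, and the smallest adjusted p was 0.622. Since the labels do not say that every replicate came from its own mouse, each p-value describes the spread of these libraries, some of which may be technical.

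Several wild type libraries stand apart. The epididymal list averaged 2.79 to 3.45 in the transgenic libraries, against 2.68 in wild type replicate 2 but 6.17, 6.14 and 6.63 in replicates 1, 3 and 4 of the wild type. Of its 6 measured genes, Serpina1f, Spink8 and Defb42 made this pattern, and Serpina1f read 2.90, 3.73 and 2.83 in transgenic fat and 10.70, 2.74, 10.84 and 11.50 in wild type fat. The 8 smooth muscle markers averaged 6.61, 6.91 and 6.38 in transgenic libraries and 8.92, 6.78, 8.93 and 9.46 in wild type libraries. The 6 spermatid markers averaged 3.15 to 3.20 in transgenic libraries and 3.30, 3.03, 3.22 and 7.30 in wild type libraries. The labelled tissue was borne out by its markers: adipocyte genes averaged 10.91 to 11.08 in transgenic libraries and 10.24 to 10.93 in wild type libraries, and all 10 had a higher transgenic mean. In such bulk samples fewer cells of a type and less RNA per cell cannot be told apart. Wild type replicate 2 was the control whose epididymal and smooth muscle averages were near those of the transgenic libraries. It lay within the transgenic range for 37 of the 48 proteasome genes (77.1%) and for 55.2% of all probe sets. The median SD among transgenic libraries was 0.12 for the 48 genes and 0.09 for all probe sets.

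Proteasome genes differed little between transgenic and wild type fat. Of the 48 genes, 0 passed an adjusted p of 0.05. At an unadjusted p under 0.05, limma found 1 gene higher in transgenic fat, Psmd4, where 4.82% of all probe sets lay, and 0 genes lower, where 3.12% lay. Every transgenic library lay above every wild type library for 1 gene, Psmb7 (3.38% of all probe sets), and below for 0 genes (2.44%). The mean was higher in transgenic fat for 33 genes and lower for 15, and 53.1% of all probe sets had a higher transgenic mean. The median difference of the 48 genes was 0.07 on the log2 scale, against 0.01 for all probe sets, and single genes ran from 0.837-fold for Psma8 to 1.22-fold for Psmd14. For 39 genes the 95% interval of the difference lay within 0.5 of 0. The other 9, whose intervals reached past 0.5 in at least one direction, were Psma8, Psmb5, Psmb7, Psmb8, Psmb9, Psmb10, Psmd14, Psme2 and Psmf1.

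**Figure D1:**
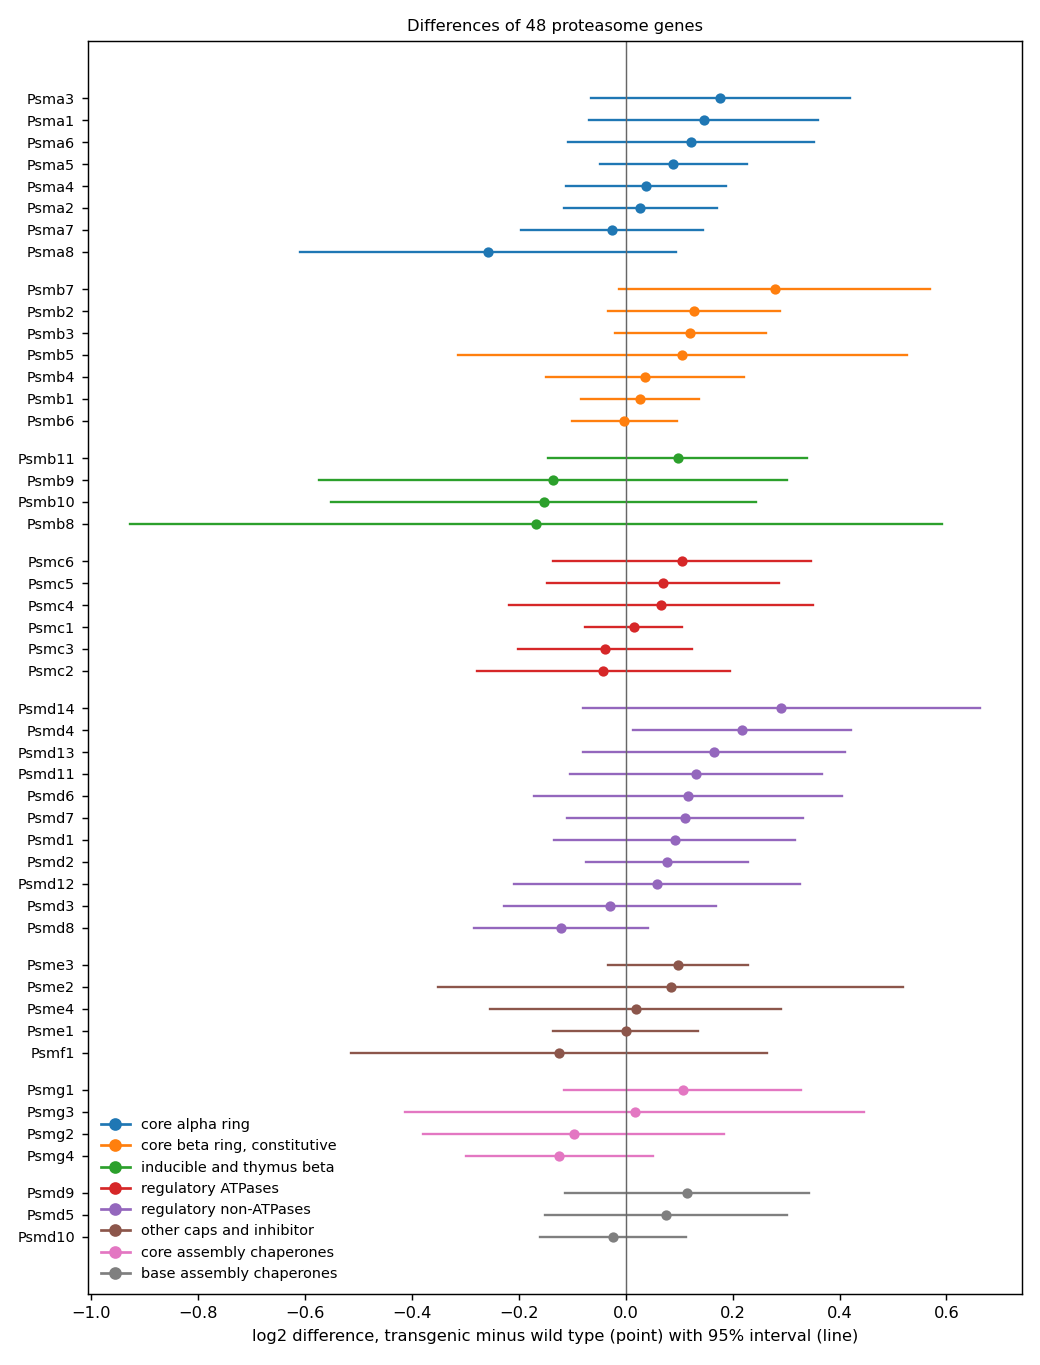
Log2 difference, transgenic minus wild type, of the 48 proteasome genes by subunit group. Points are differences and lines their 95% intervals from limma. Most points lie between 0 and 0.2, and the interval of Psmd4 alone leaves out 0.

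Short stretches upstream of selected genes show which recognition letters these promoters do and do not hold. They are from RefSeq on GRCm38.p6, written 5′ to 3′ on the strand of the gene and ending at the base before its start. Promoter windows were found for 40 of the 48 genes. Psmd3, Psmg2, Psmd7, Psma8, Psmb1, Psmb2, Psmc3 and Psmb7 had no entry. Hspa5 (chr2:34771990-34772089, plus strand), the chaperone BiP, and Pdia6 (chr12:17266489-17266588, plus strand), a disulfide isomerase, are shown as targets of the unfolded protein response, with the ER stress element in capitals.
Hspa5: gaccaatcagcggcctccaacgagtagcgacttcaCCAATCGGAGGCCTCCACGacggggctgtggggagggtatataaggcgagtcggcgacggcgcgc
Pdia6: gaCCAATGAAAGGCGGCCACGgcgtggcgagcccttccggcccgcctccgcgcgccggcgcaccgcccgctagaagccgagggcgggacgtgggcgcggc
Psmb5 (chr14:54617996-54618095, minus strand) and Psmb6 (chr11:70525257-70525356, plus strand), both catalytic subunits, hold the core of the antioxidant response element, in capitals, which NFE2L1 and NFE2L2 are known to bind.
Psmb5: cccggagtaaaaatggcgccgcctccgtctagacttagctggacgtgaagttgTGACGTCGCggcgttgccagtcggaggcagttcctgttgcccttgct
Psmb6: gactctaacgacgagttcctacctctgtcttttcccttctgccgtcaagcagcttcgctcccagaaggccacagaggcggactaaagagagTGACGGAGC
Psmd4 (chr3:95042615-95042714, minus strand), the gene with the smallest p, holds a CCAAT box and the core of the interferon-stimulated response element, both read on the opposite strand and both in capitals.
Psmd4: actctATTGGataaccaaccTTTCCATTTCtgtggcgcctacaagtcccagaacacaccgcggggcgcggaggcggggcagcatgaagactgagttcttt

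Each motif was searched on both strands in the 250 bases before the start, and shares are of the genes with a window. The ER stress element, CCAAT followed by any 9 bases and CCACG, was found in 0 of 40 proteasome promoters, in 2 of 4 stress targets and in 0.13% of the 27025 genes in the table. The letters TGACGTGG, the core of the unfolded protein response element, were found in 0 of 40 proteasome promoters and in 0.603% of all genes. They were also found in 0 of 4 stress targets, so they do not set the 2 lists apart. The antioxidant core TGACNNNGC was found in 5 of 40 (12.5%), Psmb5, Psmb6, Psmc6, Psmd12 and Psmd9, and in 11.5% of all genes. The interferon core, GAAA followed by any 2 bases and GAAA, was found in 3 of 40 (7.5%), Psmb3, Psmd4 and Psmd9, and in 3.46% of all genes. A plain CCAAT, which the ER stress element also contains, was found in 14 of 40 (35%) and in 37.5% of all genes. A match is a description of letters and not evidence of binding.

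The alpha subunits of the core showed little difference. All 8 were measured, 6 had a higher transgenic mean and 2 a lower one, and the median difference was 0.06. Psma3 read 8.53, 8.54 and 8.76 in transgenic fat, against 8.21, 8.53, 8.50 and 8.49 in wild type fat. Wild type replicate 1 was low and transgenic replicate 3 high, and the other 5 libraries lay together (difference 0.18, SE 0.10). The 2 further Psma3 probe sets gave differences of 0.16 and 0.18. Psma1 had 8.66, 8.72 and 8.97 in transgenic fat, against 8.61, 8.72, 8.69 and 8.53 in wild type fat, and the groups overlapped. Psma5 differed by 0.09 (SE 0.06), and its second probe set by 0.11. Several probe sets of 1 gene may stem from near-identical copies, and these arrays do not separate such copies.

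Psma8, the alpha subunit of the testis-specific proteasome, was dim, at 2.62, 2.73 and 2.88 in transgenic fat and 2.87, 2.87, 2.87 and 3.38 in wild type fat. The highest value was in wild type replicate 4, the library with spermatid transcripts. The sperm protamine Prm2 read 3.36, 3.54 and 3.68 in transgenic fat and 3.68, 3.25, 3.68 and 9.76 in wild type fat. The Psma8 difference of -0.26 was the lowest of the 48 genes, and -0.13 without that library. Psmc3ip also read highest there, with 3.26, 3.45 and 3.43 in transgenic fat and 3.45, 3.45, 3.45 and 3.92 in wild type fat. The part of spermatid RNA in these values was not tested.

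The constitutive beta subunits had a median difference of 0.11, with 6 of 7 means higher in transgenic fat. Psmb7, the subunit with trypsin-like activity, read 9.17, 9.19 and 9.61 in transgenic fat, against 8.91, 9.11, 9.07 and 9.10 in wild type fat. The groups did not overlap, but transgenic replicates 1 and 2 lay nearer to wild type replicates 2, 3 and 4 than to transgenic replicate 3. The difference was 0.28 (SE 0.12), and 0.14 without transgenic replicate 3. Psmb5, with chymotrypsin-like activity, read 6.79, 7.07 and 7.50 in transgenic fat, against 7.19, 6.88, 7.08 and 6.91 in wild type fat. Transgenic libraries were both the lowest and the highest, and the difference of 0.11 (SE 0.17) became -0.09 without transgenic replicate 3. Psmb6, with caspase-like activity, was flat, at 8.83, 8.81 and 8.83 in transgenic fat and 8.90, 8.79, 8.81 and 8.81 in wild type fat. Its 95% interval ran from -0.10 to 0.10. Among the structural subunits Psmb2 differed by 0.13 (SE 0.07) and Psmb3 by 0.12 (SE 0.06), with overlapping groups in both.

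The inducible catalytic subunits varied more between wild type libraries than between genotypes. Psmb8, which takes the place of Psmb5, read 6.48, 6.56 and 6.55 in transgenic fat, against 7.48, 6.59, 6.69 and 6.03 in wild type fat. The transgenic libraries lay inside the wild type range, whose SD of 0.60 was the largest of the 48 genes in wild type fat. The difference was -0.17 (SE 0.32, 95% interval -0.93 to 0.59), and it was 0.09 without wild type replicate 1. Psmb9, which takes the place of Psmb6, had 7.01, 6.98 and 6.86 in transgenic fat and 7.55, 6.98, 7.07 and 6.75 in wild type fat. Psmb10, which takes the place of Psmb7, had 6.51, 6.51 and 6.30 in transgenic fat and 7.01, 6.51, 6.55 and 6.31 in wild type fat. All 3 genes were highest in wild type replicate 1, and Psmb8 and Psmb9 were lowest in wild type replicate 4. Wild type replicate 1 exceeded wild type replicate 4 by 2.74-fold for Psmb8, 1.74-fold for Psmb9 and 1.62-fold for Psmb10, against 1.22-fold for Psmb5 and 1.07-fold for Psmb6. For Psmb7 the ratio was 0.879, and wild type replicate 1 was its lowest library. This pair of libraries holds the extremes of Psmb8 and Psmb9, so smaller ratios for other genes are partly built in. Wild type ranges on the log2 scale were 1.45 for Psmb8, 0.80 for Psmb9 and 0.69 for Psmb10. Psmb5 spanned 0.71 in transgenic fat and 0.32 in wild type fat. Psmb11, the thymus-specific subunit, was dim, with 3.08 in each transgenic library and 3.18, 2.91, 3.08 and 2.77 in wild type fat. The median difference of these 4 beta subunits was -0.14, and 0.06 without wild type replicate 1.

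Psmb9 lies head to head with Tap1, a subunit of the transporter that carries proteasome products into the ER, on mouse chromosome 17. Their RefSeq starts are at 34187330 and 34187556 on GRCm38.p6, with 225 bases between them. These bases (chr17:34187331-34187555, minus strand) are shown in the direction of Psmb9, with a CCAAT box of the opposite strand in capitals, followed by the 100 bases before Psmb8 (chr17:34198095-34198194, plus strand), which hold none of the 5 motifs.
Psmb9: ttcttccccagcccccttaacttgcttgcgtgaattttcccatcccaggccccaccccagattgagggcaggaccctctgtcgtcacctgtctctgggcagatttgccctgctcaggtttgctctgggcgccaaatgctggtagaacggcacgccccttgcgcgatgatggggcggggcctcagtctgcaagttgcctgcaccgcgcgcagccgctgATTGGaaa
Psmb8: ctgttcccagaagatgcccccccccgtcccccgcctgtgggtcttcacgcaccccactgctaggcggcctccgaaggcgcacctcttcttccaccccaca

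Most genes of the interferon response, and some of peptide loading, were highest in the same wild type library. Wild type replicate 1 had the highest value for 10 of 11 interferon genes, with Oas1a the exception, and for 3 of 9 peptide loading genes, Tap1, Tap2 and Nlrc5. That library alone had the highest value for 19.7% of all probe sets. The other 6 peptide loading genes peaked elsewhere, and B2m, the light chain of MHC class I, was lowest in that library. Tap1 read 6.09, 6.39 and 6.39 in transgenic fat, against 7.59, 6.32, 6.52 and 5.74 in wild type fat. Irf1, a transcription factor induced by interferon, read 6.93, 6.85 and 6.58 in transgenic fat, against 7.93, 6.83, 6.87 and 6.49 in wild type fat. The 11 interferon genes averaged 5.29, 5.41 and 5.35 in transgenic libraries and 6.18, 5.27, 5.49 and 4.84 in wild type libraries, with 3 means higher and 8 lower in transgenic fat. Nlrc5, an activator of MHC class I genes, was highest in wild type replicate 1 in 18 of its 19 probe sets. Of the 9 peptide loading genes, 0 passed an unadjusted p of 0.05 as higher (4.82% of all probe sets) or as lower (3.12%). B2m differed by 0.01.

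On average, leukocyte markers were also high in wild type replicates 1 and 3. The 14 markers averaged 5.92, 5.86 and 6.11 in transgenic libraries and 6.88, 6.15, 6.87 and 5.89 in wild type libraries. Wild type replicate 1 had the highest value for 5 of the 14 (19.7% of all probe sets) and wild type replicate 3 for 6 (9.35%). Transgenic replicate 1 had it for 2, and wild type replicate 4 for 1, Cd52. Cd52, the gene of this list with the smallest p, read 6.24, 6.29 and 6.40 in transgenic fat, against 9.98, 6.64, 9.67 and 10.33 in wild type fat. Like Serpina1f, it was low in wild type replicate 2 and highest in wild type replicate 4, where Cd68 and Adgre1 were lowest. Cd52 thus followed the epididymal pattern and not that of these macrophage genes, so here it does not serve as a leukocyte marker. The averages include it, at 10.33 in wild type replicate 4. The macrophage gene Cd68 read 8.39, 8.37 and 9.01 in transgenic fat, against 10.76, 9.20, 10.29 and 7.84 in wild type fat. Adgre1, another macrophage marker, was higher in wild type replicate 3 (9.09) than in wild type replicate 1 (8.75). Cd68 was higher in wild type replicate 1, as was Psmb8, which read 7.48 there and 6.69 in wild type replicate 3. Cd68, Adgre1 and Psmb8 were all lowest in wild type replicate 4. The part of leukocyte number in the inducible subunits was not tested.

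**Figure D2:**
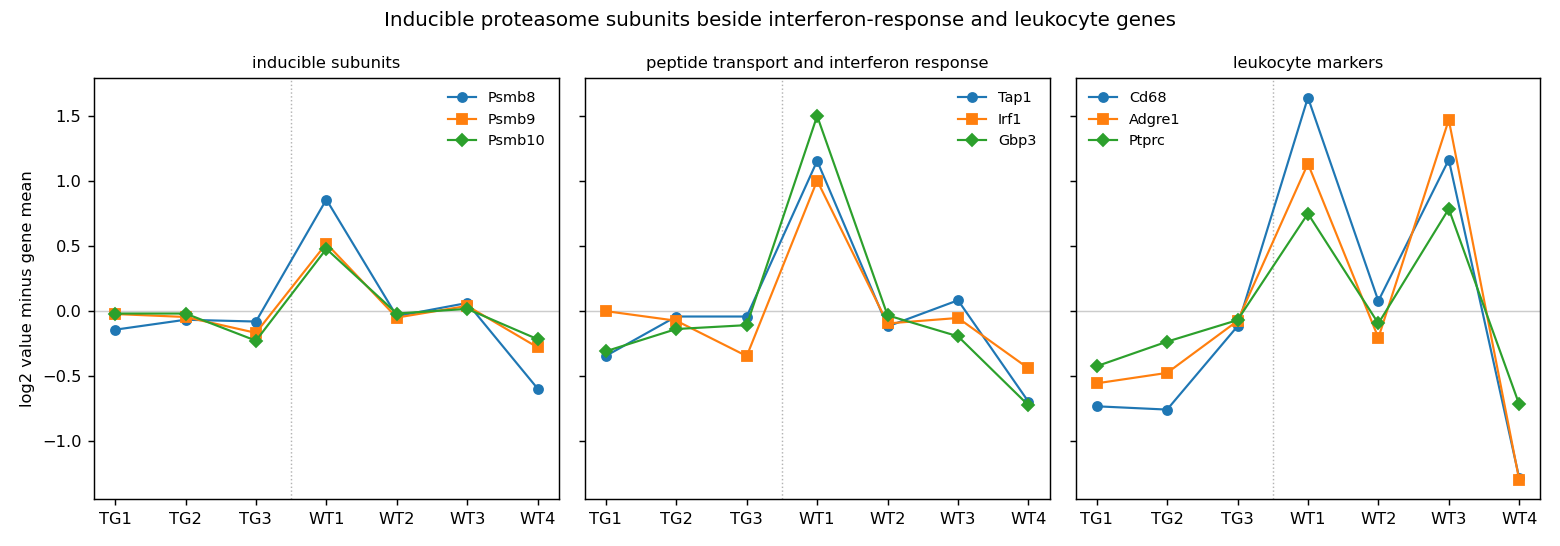
Log2 value minus the gene's mean over all 7 libraries, for 3 inducible subunits, 3 genes of peptide transport and the interferon response, and 3 leukocyte markers, in transgenic (TG) and wild type (WT) replicates. The inducible subunits and the 3 genes beside them peak in wild type replicate 1 alone, while the 3 leukocyte markers peak in wild type replicates 1 and 3.

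In the regulatory particle the 6 ATPases, which unfold substrates, had a median difference of 0.04 with 4 means higher and 2 lower in transgenic fat. Psmc6 read 8.24, 8.34 and 8.44 in transgenic fat, against 8.03, 8.42, 8.28 and 8.21 in wild type fat. Psmc2 was high only in transgenic replicate 3, at 7.94, 7.88 and 8.26 in transgenic fat and 7.98, 8.10, 8.10 and 8.11 in wild type fat. Its difference was -0.04 (SE 0.10). Psmc1 had the narrowest interval of the ATPases, from -0.08 to 0.11. Its second probe set differed by 0.10, with a wider interval from -0.13 to 0.32.

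The 11 non-ATPases had a median difference of 0.11, with 9 means higher and 2 lower in transgenic fat. Psmd4, a ubiquitin receptor, read 7.42, 7.53 and 7.73 in transgenic fat, against 7.23, 7.42, 7.36 and 7.35 in wild type fat. Transgenic replicate 1 and wild type replicate 2 had the same value, and the other libraries separated by genotype. The difference was 0.22 (SE 0.08, 95% interval 0.01 to 0.42, limma adjusted p = 0.622). It lost an unadjusted p of 0.05 without any 1 of transgenic replicates 2 and 3 and wild type replicates 1, 3 and 4, with differences from 0.13 to 0.29 over all 7 omissions. Psmd14, the subunit that cuts ubiquitin off the substrate, read 8.59, 8.66 and 9.04 in transgenic fat, against 8.30, 8.73, 8.56 and 8.30 in wild type fat. Wild type replicate 2 lay above 2 transgenic libraries, and the difference of 0.29 had an SE of 0.15 and was 0.15 without transgenic replicate 3. Psmd13 differed by 0.17 (SE 0.10) and Psmd8 by -0.12 (SE 0.07), the lowest of the group. Both are structural subunits of the lid.

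Transgenic replicate 3 was high across the core and the regulatory particle. Their 32 genes averaged 7.78, 7.83 and 7.99 in transgenic libraries, against 7.75, 7.83, 7.82 and 7.79 in wild type libraries. Transgenic replicates 1 and 2 thus lay inside the wild type range or at its edge. Transgenic replicate 3 alone had the highest value for 22 of the 32 genes (68.8%) and for 27 of all 48 (56.2%), against 15.1% of all probe sets. Wild type replicate 1 alone had the lowest value for 13 of the 32 (40.6%), and for 20% of all probe sets. Without transgenic replicate 3 the median difference of the 48 genes was 0.00 and 24 of 48 means were higher in transgenic fat. The group medians were then 0.03 for the alpha subunits, 0.05 for the constitutive beta subunits, -0.03 for the ATPases, 0.01 for the non-ATPases and -0.01 for the base chaperones. Psma1, Psma3 and Psmd13 then differed by 0.05, 0.10 and 0.09. Set against wild type replicate 2 alone, the median of the 48 genes was 0.03. Transgenic replicate 3 had the lowest Xbp1 value and the lowest mean of the ER stress targets among transgenic libraries. Between transgenic replicates 1 and 2, replicate 2 was higher both in Xbp1 and in the average of the 32 genes. The part of Xbp1 level in these values was not tested. Adipocyte markers averaged 11.08 in transgenic replicate 3, against 10.94 and 10.91 in the other transgenic libraries. The part of adipocyte content in this pattern was not tested.

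**Figure D3:**
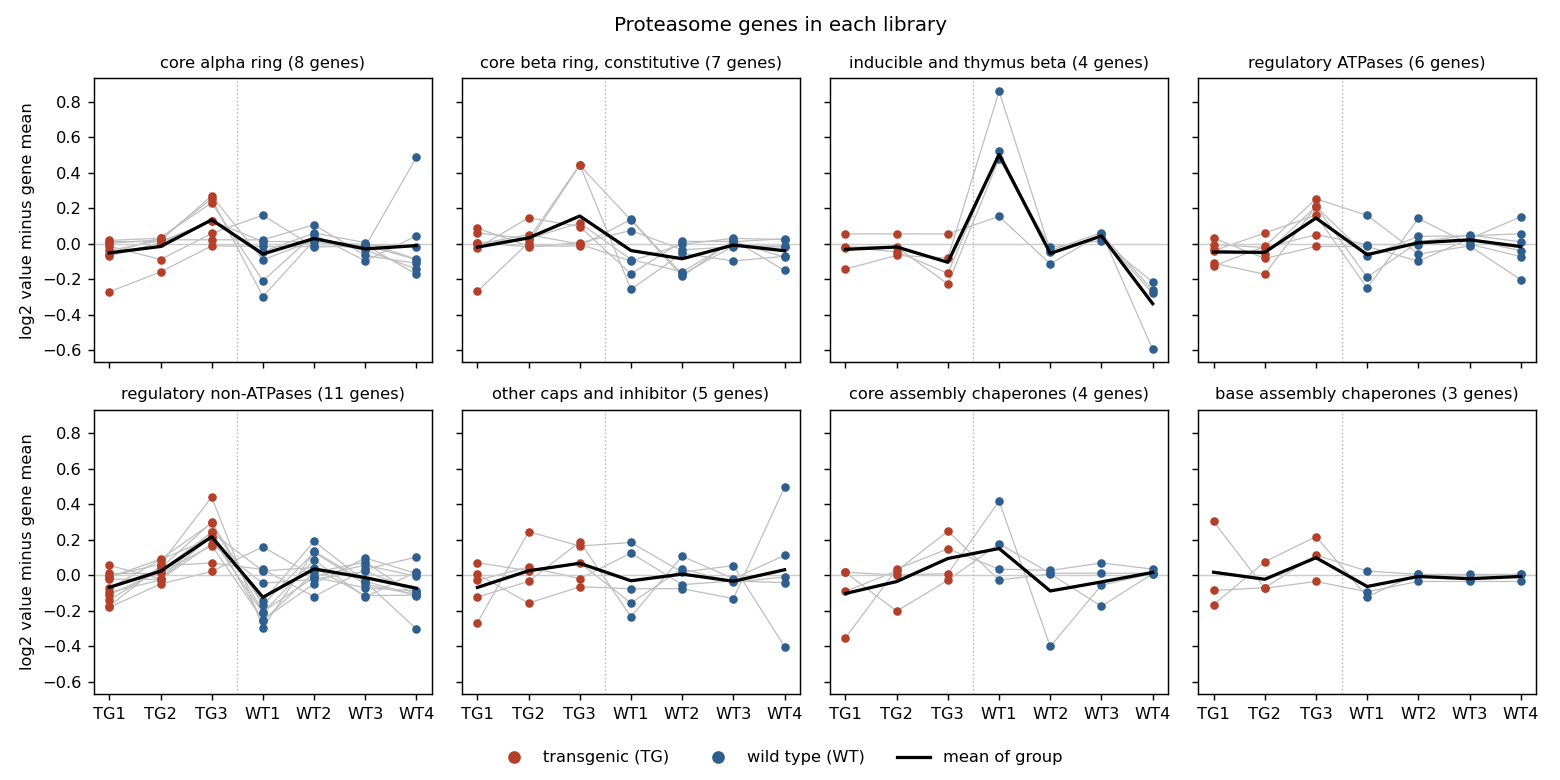
Log2 value minus the gene's mean over all 7 libraries, by subunit group, for transgenic (TG) and wild type (WT) replicates. Grey lines join the values of a gene and the black line is the group mean. Core and regulatory groups are highest in transgenic replicate 3, and the inducible subunits in wild type replicate 1.

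**Figure D4:**
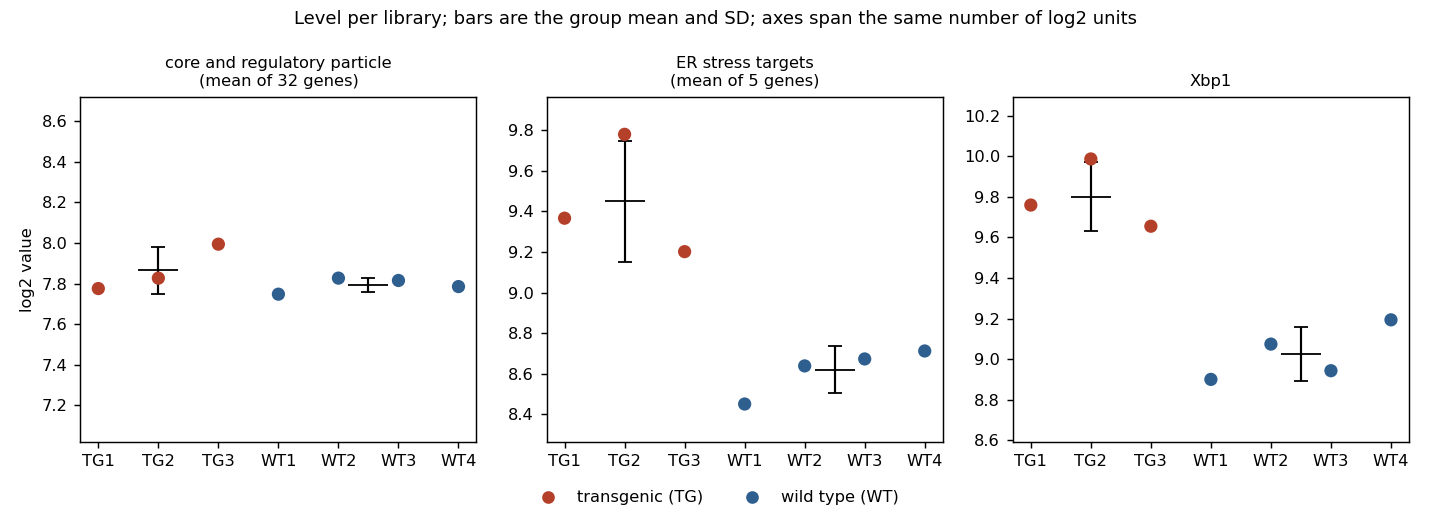
Mean log2 level of 32 core and regulatory particle genes, mean of 5 ER stress targets, and Xbp1, in each library, with bars for the mean and SD of each genotype. The 3 axes span the same number of log2 units. Xbp1 and stress targets separate by genotype, and the proteasome genes, at 7.87 ± 0.11 (SD, n = 3) in transgenic and 7.79 ± 0.04 (SD, n = 4) in wild type fat, overlap.

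The alternative caps and the inhibitor had a median difference of 0.02. Psme1 and Psme2 are partners in a cap induced by interferon. Psme1 read 8.23, 8.31 and 8.24 in transgenic fat and 8.38, 8.21, 8.23 and 8.22 in wild type fat, with a difference of 0.00 (SE 0.06). Psme2 read 7.81, 8.32 and 8.24 in transgenic fat and 8.26, 8.09, 8.13 and 7.67 in wild type fat, a wide spread in both groups. A further probe set shared by Psme2 and Psme2b read 6.42, 6.87 and 6.66 in transgenic fat and 6.67, 6.66, 6.66 and 6.47 in wild type fat, and was not counted. Psme3, the cap of nuclear proteasomes, differed by 0.10 (SE 0.05) and Psme4, a cap known from sperm development, by 0.02 (SE 0.11). Psmf1, an inhibitor of the core in the test tube, read 6.36, 6.20 and 6.29 in transgenic fat and 6.28, 6.28, 6.23 and 6.85 in wild type fat. Only wild type replicate 4 stood apart, and the difference of -0.13 became 0.02 without it.

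Of the 7 assembly chaperones 0 passed an unadjusted p of 0.05, where 4.82% of all probe sets lay as higher and 3.12% as lower. Means were higher in transgenic fat for 4 and lower for 3, with a median difference of 0.02. Of the core chaperones, Psmg1 differed by 0.11 (SE 0.09). Its partner Psmg2 read 5.63, 6.02 and 6.13 in transgenic fat and 6.02, 6.01, 6.05 and 6.02 in wild type fat, so that transgenic replicate 1 alone was low. Psmg3 and Psmg4 were dim, with differences of 0.02 (SE 0.18) and -0.12 (SE 0.07). The base chaperones Psmd5, Psmd9 and Psmd10 differed by 0.08, 0.11 and -0.02. Psmd9 was high only in transgenic replicate 1, at 6.49, against 6.12 and 6.15 in the other transgenic libraries and 6.10 to 6.15 in wild type fat. Psmd10 was highest in transgenic replicate 3, at 6.98, against 6.78 and 6.80 in transgenic replicates 1 and 2 and 6.87 to 6.89 in wild type fat.

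Proteasome partners outside the name rule also differed little. Of 10 measured, the transgenic mean was higher for 5 and lower for 5, and 0 lay past an unadjusted p of 0.05. Among all probe sets 4.82% lay past it as higher and 3.12% as lower. Ubqln1, a shuttle that brings ubiquitinated proteins to the proteasome, differed by 0.23 (SE 0.10), and Sem1, a small lid subunit, by -0.09 (SE 0.05). Pomp, which matures the core, differed by 0.05 (SE 0.09).

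Of 4 measured regulators of proteasome genes 2 passed an unadjusted p of 0.05, both higher in transgenic fat (4.82% of all probe sets) and neither past the adjusted test. Nfe2l1, the ER-anchored transcription factor that drives subunit genes when proteasome activity is short, read 9.09, 8.86 and 9.08 in transgenic fat, against 8.43, 8.95, 8.63 and 8.59 in wild type fat. Wild type replicate 2 lay above transgenic replicate 2, and the difference was 0.35 (SE 0.13, limma adjusted p = 0.622). Vcp, the ATPase that draws proteins out of the ER membrane, differed by 0.20 (SE 0.08, limma adjusted p = 0.622). Ngly1, which processes NFE2L1, differed by 0.30 (SE 0.13), and Nfe2l2 by -0.02 (SE 0.05). Adipocyte markers, 6 of 10 of which passed the same unadjusted threshold, were also higher in transgenic fat, and their part in these differences was not tested.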

How the data were processed

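Total RNA of 7 fat samples was hybridised, per the labels' protocols. The authors deposited log2 expression values in 1 table, made with RMA, per the submitters' processing notes, which corrects background, normalizes arrays by quantiles and summarises probes. The version, probe set definition and filters behind them are not stated in the sources. Scanner files were left aside. Of 35556 rows, 21789 had 1 gene symbol in the platform annotation and were tested, 1621 had several and 12146 none. All 7 columns matched a sample label. Array medians ran from 3.99 to 4.04, and precision is limited by the small number of arrays.

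Transgenic minus wild type differences were fitted on the deposited log2 values, unchanged, with limma 3.58.1 in R 4.3.3 (lmFit and eBayes, two-sided, genotype as the only term), with Benjamini-Hochberg adjustment over all 21789 probe sets. The fit was tested on simulated data. Of the 48 genes, 28 hold identical values in 2 or more libraries, and 5 have several probe sets. The 48 members, the lists and the tests were chosen with earlier results of these data known. Named genes were Xbp1, Nfe2l1, the catalytic subunits and caps, up to 4 members of each group with the smallest p, those with the highest and lowest difference, and up to 2 genes of each other list. Psmc1, Tap1, Tap2, Oas1a, Nlrc5, B2m, Cd68, Adgre1, Prm2, Serpina1f, Pomp, Ngly1 and Nfe2l2 outside this rule were chosen after their values were seen, as were the promoters shown. Promoters came from RefSeq windows of 300 bases, of which the 250 before the start were searched.

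Alternatives were a replicate block, a second quantile normalization, shifting arrays to 1 median, omission of the dimmest 25% of rows, a test of every row, a single probe set for each gene, a robust intensity-dependent prior, weighting of arrays (statmod 1.5.0), omission of each library, comparison with wild type replicate 2 alone, the mean of a gene's probe sets, and an adjusted p of 0.1. Figures were drawn with Python 3.11.15, pandas 2.3.3 and matplotlib 3.10.9.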

Additional observations from a re-analysis of the deposited data

Results flagged for a closer look

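In 16 of 77 sets of wild type values examined (48 proteasome genes, 21 other genes and 8 group means), 1 of the 4 wild type libraries lay far from the other 3 by Dixon's 95% critical value. Chance gives about 1 in 20 for independent sets without ties. These sets share the same 4 libraries, 28 of the 48 genes hold identical values, and some other genes were named by their p. The count therefore cannot be read as an excess over that rate. Wild type replicate 1 stood below the others for Psma3 (8.21, others 8.49 to 8.53), Psmc2 (7.98, others 8.10 to 8.11), Psmc5 (7.65, others 7.85 to 7.89) and Psmd9 (6.10, others 6.15). The same library stood above the others for Psmb6 (8.90, others 8.79 to 8.81), Psme1 (8.38, others 8.21 to 8.23), Psmd10 (6.89, others 6.87) and Psmg4 (4.27, others 4.10). Where the other 3 libraries hold identical values, as for Psmd9, Psmd10, Psmg4 and Psma8, any departure is marked, however small. Wild type replicate 4 stood above the others for Psma8 (3.38, others 2.87) and Psmf1 (6.85, others 6.23 to 6.28).

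Among markers of other cells, wild type replicate 4 was high for the spermatid genes Odf1 (7.77, others at most 3.57) and Tnp1 (4.87, others at most 2.73), and low for the myeloid gene Itgax (5.15, others 6.71 to 6.82). Wild type replicate 2 was low for the epididymal genes Spink8 (2.45, others 8.82 to 9.51) and Defb42 (2.51, others 8.41 to 9.14) and for Acta2 of smooth muscle (10.72, others 11.79 to 11.95).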

How the results depend on the processing

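No proteasome gene passed an adjusted p of 0.05 with limma under any alternative run, nor an adjusted p of 0.1. Without wild type replicate 2 the whole table held 7 probe sets higher and 84 lower, none of them proteasome genes. The count of proteasome genes past an unadjusted p of 0.05 and higher in transgenic fat was 1 as reported. It was 2 with the replicate block and with the mean of a gene's probe sets, 4 after shifting arrays to a common median, and 3 (Psmb3, Psmb11 and Psmg3) against wild type replicate 2 alone, a fit in which the lone control is assumed to vary like the transgenic libraries. Leaving out single libraries gave 0 to 4, with 0 without transgenic replicate 2 or 3 or wild type replicate 1 or 3. The count lower in transgenic fat was 0 as reported, 1 (Psma2) against wild type replicate 2 alone, and 0 to 2 over the omissions, with 2 (Psmc2 and Psmd10) without transgenic replicate 3. The median difference of the 48 genes, 0.07, ran from 0.00 to 0.09 over the omissions and was 0.04 with the block, 0.11 after the shift and 0.03 against wild type replicate 2 alone.

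The sign of some single-gene differences turned, and the cause was not tested. The block gave 0.0065 for Psmc3, -0.038 for Psme2 and 0.0221 for Psmf1. The shift to a common median gave 0.0377 for Psmb6, 0.0021 for Psmc3, 0.0169 for Psmd10 and 0.0406 for Psme1, and array weights gave 0.0046 for Psmb6 and 0.0234 for Psme1. Against wild type replicate 2 alone the differences were 0.27 for Defb42, 0.28 for Odf1, 0.32 for Spink8, 0.0721 for Tnp1, 0.0323 for Psmb6, 0.0761 for Psmc3, -0.0821 for Psmc6, 0.0523 for Psme1, -0.0964 for Psme4 and 0.0037 for Psmf1. Over the omissions of single libraries the difference ran from -0.0851 to 0.27 for Psmb5, -0.0148 to 0.0213 for Psmb6, -0.39 to 0.0942 for Psmb8, -0.25 to 0.0179 for Psmb9, -0.16 to 0.0324 for Psmc2, -0.0768 to 0.0065 for Psmc3, -0.0421 to 0.15 for Psmc4 and -0.0159 to 0.12 for Psmc5. It ran from -0.0126 to 0.18 for Psmd5, -0.0046 to 0.18 for Psmd9, -0.0876 to 0.0119 for Psmd10, -0.0235 to 0.0417 for Psme1, -0.038 to 0.24 for Psme2, -0.0702 to 0.0854 for Psme4, -0.19 to 0.0221 for Psmf1, -0.20 to 0.0502 for Psmg2, -0.11 to 0.16 for Psmg3 and -0.43 to 0.0559 for Irf1.

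The labels do not say that the replicate numbers pair the samples. Deviations of same-numbered samples from their group means correlated at -0.139, -0.095 and 0.058, and those of differently numbered samples at -0.18 to 0.139. With so few arrays, whose deviations sum to 0 in each group, these values cannot settle whether samples were paired. With 3 and 4 arrays, half-widths of the 95% intervals had a median of 0.23 over the 48 genes, which limits the differences that could be seen for a typical gene. RMA brings arrays to a common distribution, so a shift of all genes in 1 genotype would not show. Psma8, Psmb11, Psmg3 and Psmg4 averaged below 5, and no measure of signal over background was used here.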
